A study of Mus musculus with 2 samples.

Results

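The genes described here are the DEAD and DEAH box helicase genes of the mouse that serve as hosts of circular RNAs (circRNAs). They were chosen by name: a host gene belongs to the set where its symbol starts with Ddx or Dhx and goes on with a digit. This gave 42 of the 8174 host genes listed in either library, with 168 of 31496 listed circRNAs. GENCODE release M21 annotates 53 protein-coding genes with such names, and 11 of them had no entry in either library (Ddx25, Ddx28, Ddx3y, Ddx4, Ddx41, Ddx47, Ddx51, Ddx59, Dhx37, Dhx38 and Dhx58).

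Cells from the intestine of mice of the strain Lgr5GFP-CreERT2, aged 2 months, were separated by FACS into Lgr5+ ISC (intestinal stem cells) and Lgr5- non-ISC. In this strain the Lgr5 locus drives a green fluorescent protein and an inducible Cre recombinase. The reporter allele, the tissue and the age were the same for both groups. Each group had 1 library, and the labels do not say how many animals gave the cells. Ribosomal RNA was removed, linear RNA was digested with the enzyme RNase R, and what remained was sequenced. A circRNA is recognised by its back-splice junction, where the end of an exon is joined to the start of the same exon or of one upstream, and reads across that junction are the measure used here. A difference between the libraries is a difference between these 2 libraries and has no replicate check, so no p-value is given. Ratios are ISC over non-ISC, each library's reads taken as a share of its own junction reads, with exact 95% intervals. The intervals cover counting error only.

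DEAD and DEAH box proteins use ATP to unwind or remodel RNA and the proteins bound to it, and they are named after a short motif in single-letter amino acid code in the helicase core that takes part in ATP hydrolysis. Many drive the steps of pre-mRNA splicing, others the maturation of ribosomal RNA, and further ones act in mRNA export, translation, decay or antiviral sensing. Most are expressed in nearly all tissues, the intestine included, and a few mainly in the germ line.

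The library labelled ISC held 156582 junction reads and the library labelled non-ISC 76331, so that the 3 reads which a count of 0 still allows came to 19.2 and 39.3 per 1000000 junction reads. Marker hosts went against the labels. Of 14 epithelial markers, 12 were at 0 in the ISC library, and the list summed to 3 reads there, against 538 reads in the non-ISC library. All 8 with at least 10 reads were lower in ISC, Epcam and Cdh1 included. The others had few reads in either library, and Krt18 had 1 ISC read and 0 non-ISC reads. Of 11 Lgr5 stem cell markers, 9 were at 0 in the ISC library, 3 of them in both libraries. The list summed to 33 ISC reads, against 171 non-ISC reads. Lgr5 itself had 0 ISC reads and 7 non-ISC reads. Of the 5 with at least 10 reads, 4 were lower in ISC and Znrf3 was not called. The 18 lymphocyte markers summed to 7376 ISC reads, against 138 non-ISC reads, and all 15 with at least 10 reads were higher in ISC. The labels are kept below as names of the libraries, and the part that these cell types play in the helicase results was not tested. Fewer cells of a type and less RNA per cell cannot be told apart in such bulk libraries.

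The back-splice junctions shown here are those of the helicase circRNAs with at least 20 reads in a library and of the most abundant circRNAs of the 3 hosts with the most reads. The last 25 bases before the junction are in lower case and the first 25 bases after it are in CAPITALS, read 5′ to 3′ on the strand of the gene from GENCODE M21 transcripts on GRCm38. All of these bases are protein-coding sequence.
Dhx15, chr5:52180982-52184903, minus strand, exons 2 to 3: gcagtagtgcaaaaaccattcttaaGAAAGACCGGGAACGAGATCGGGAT
Ddx17, chr15:79542487-79543856, minus strand, exons 2 to 3: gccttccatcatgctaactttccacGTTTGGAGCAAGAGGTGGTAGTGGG
Ddx17, chr15:79541034-79543856, minus strand, exons 2 to 4: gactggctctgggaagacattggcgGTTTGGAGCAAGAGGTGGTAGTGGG
Ddx46, chr13:55663219-55663941, plus strand, exons 14 to 15: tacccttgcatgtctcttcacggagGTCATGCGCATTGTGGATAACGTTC
Ddx6, chr9:44623619-44624621, plus strand, exons 5 to 6: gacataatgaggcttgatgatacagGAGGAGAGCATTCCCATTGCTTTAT
Ddx52, chr11:83948445-83949694, plus strand, exons 5 to 6: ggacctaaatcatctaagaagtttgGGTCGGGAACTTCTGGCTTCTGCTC
The 2 Ddx17 circRNAs share the capital part, since both begin at exon 2, and differ in the lower-case part, which ends in exon 3 or in exon 4. Exon numbers follow the lowest-numbered GENCODE transcript that has both ends of the circle, and for Ddx46 the lowest-numbered one that also holds the helicase motif. Only the junction was counted here. The exons, lengths and coding bases between the 2 ends of a circle are taken from the annotation, and skipped exons or kept introns would not be seen.

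The helicase hosts as a set held 489 of the ISC junction reads and 178 of the non-ISC junction reads. These were 3123 per 1000000 junction reads in ISC, or 0.312% (0.285 to 0.341), and 2332 in non-ISC, or 0.233% (0.200 to 0.270). The ratio was 1.34 (1.13 to 1.60), and without Dhx15, the host with the most reads, it was 1.18 (0.975 to 1.43). In the deposited count column, a second read count whose making the sources used here do not explain, the ratio was 1.53, and 0.605 without a single Ddx5 entry that holds 8403 of the 13871 ISC counts, an alternative chosen after seeing the data. Of the 42 hosts, 38 had a junction read, 24 of them in both libraries, 12 in ISC alone and 2 in non-ISC alone (Dhx16 and Ddx49, with 2 reads each). The other 4, Ddx1, Ddx39, Ddx56 and Dhx36, had entries without any junction read. Junction reads were found in 36 helicase hosts in ISC and 26 in non-ISC, against 5823 and 4823 of all hosts. The ISC library held more junction reads, and hosts read in 1 library alone were not counted over all hosts. The split is therefore no result about the helicases. Reads were concentrated: Dhx15, Ddx17 and Ddx46 held 223 ISC reads (45.6% of the set) and 49 non-ISC reads (27.5%). At the other end, 21 hosts had 1 to 8 reads over both libraries and summed to 55 ISC reads and 20 non-ISC reads.

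A call of higher or lower needs 10 reads or more in the 2 libraries together, a 2-fold or larger ratio, up or down, and an interval that leaves out 1. Of the 17 helicase hosts with at least 10 reads, 7 were called (41.2%), against 49.4% of all 2920 hosts with as many reads. Higher in ISC were 5 of the 17 (29.4%), namely Dhx15, Ddx46, Ddx42, Ddx55 and Ddx18, against 26.7% of all hosts. Lower in ISC were 2 of the 17 (11.8%), namely Ddx52 and Ddx11, against 22.7%. These shares were near or below those of all hosts, so the number called is no result about the helicases as a set. With junction reads halved, to allow for a read pair counted as 2 reads, Dhx15 and Ddx52 kept their calls and the other 5 hosts lost them. Ddx11 and Ddx18, with 10 reads each, then fell below the minimum of 10. Of all 1794 hosts that passed this minimum, 23.4% were higher and 20.6% lower, which is not a share of calls kept. Scaling by the library totals behind the authors' RPM values in place of the junction reads gave 13 higher and 1 lower of the 17, where 58.8% of all hosts were then higher and 11.1% lower. Median-ratio size factors gave 6 higher and 2 lower, against 32.3% and 20.1% of all hosts. The deposited count column gave 6 hosts higher and 19 lower, against 22.2% and 53.8% of all hosts with at least 10 counts. The median log2 ratio was 0.32 for the 17 helicases, with quartiles of -0.13 and 1.07, and 0.16 for all 2920 hosts, with quartiles of -1.05 and 1.52.

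**Figure D1:**
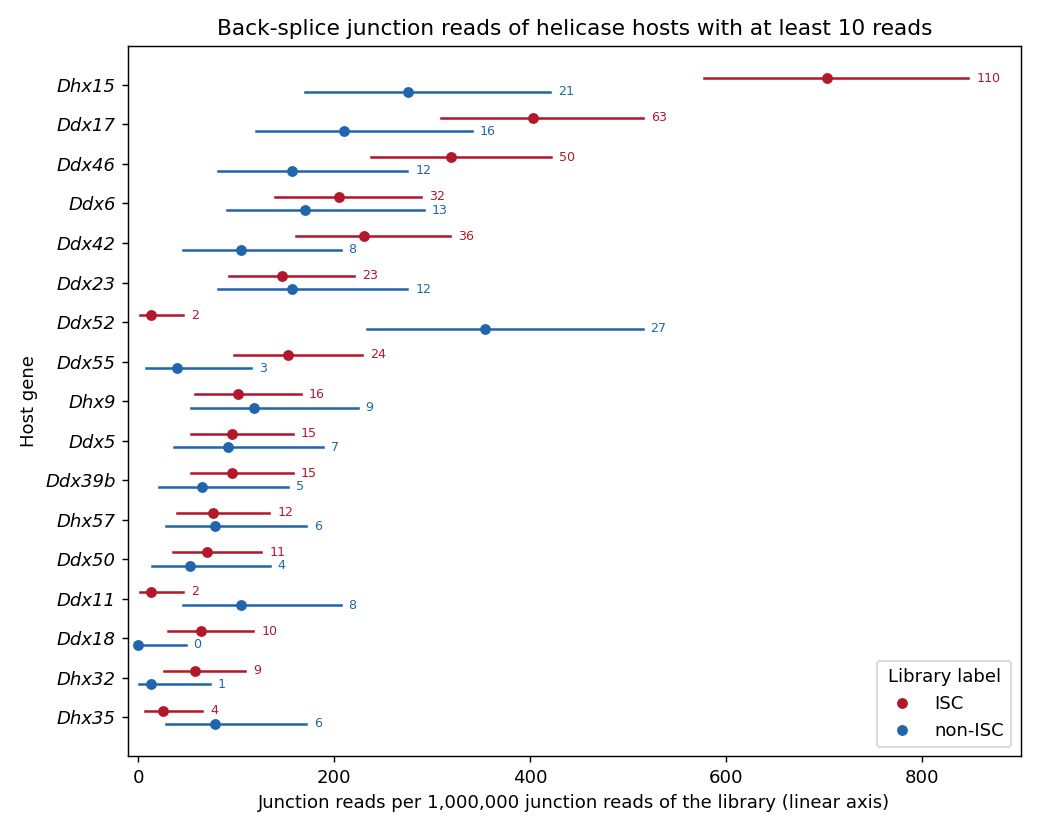
Junction reads per 1000000 junction reads of the library (x axis, linear) for the 17 helicase hosts with at least 10 reads (y axis, in order of reads over both libraries). Points are the ISC library (red, upper) and the non-ISC library (blue, lower), lines are exact 95% counting intervals and the figures beside them are reads: Dhx15 lies farthest to the right with 110 ISC reads, and Ddx52 is the host with far more reads in non-ISC (27) than in ISC (2).

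**Figure D2:**
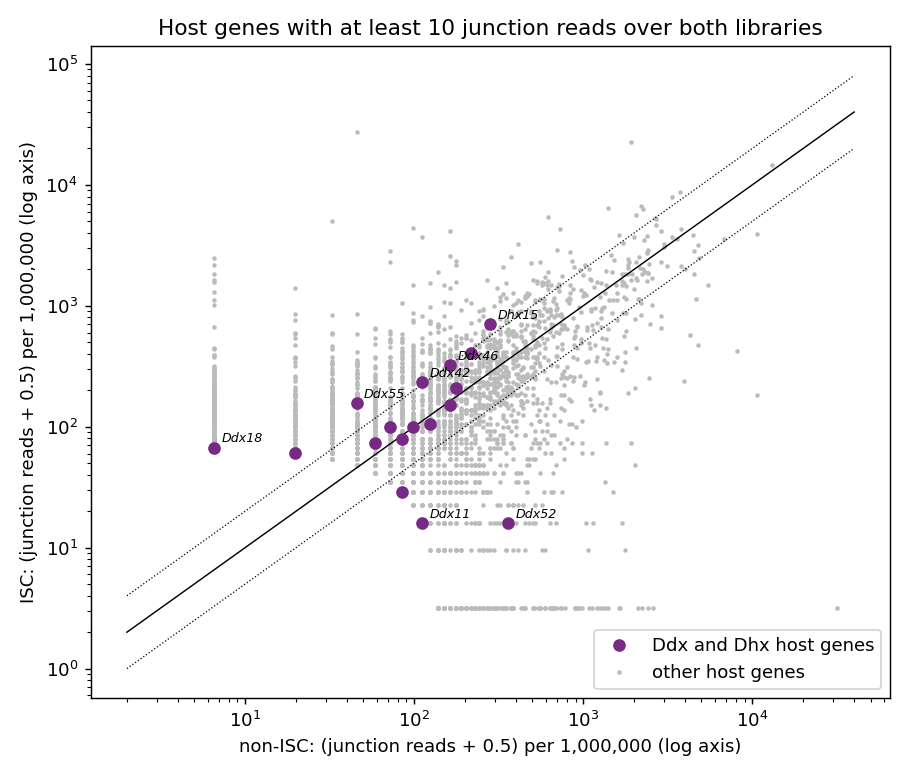
All hosts with at least 10 junction reads, as reads plus 0.5 per 1000000 junction reads of each library on log axes (ISC on the y axis, non-ISC on the x axis). The solid line marks equal shares and the dotted lines a ratio of 2 either way: the 17 helicase hosts (purple; the 7 called are named) lie within the cloud of the other hosts (grey).

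The splicing helicases came first in reads. These 11 hosts, of 14 gene symbols listed for that role (Ddx39 and Ddx39a name 1 gene), summed to 322 ISC reads and 90 non-ISC reads. The ratio was 1.74 (1.38 to 2.23), and 1.50 (1.14 to 2.00) without Dhx15. In the deposited count column the ratio was 2.34, and 0.469 without the same Ddx5 entry. Of the 8 with at least 10 reads, 3 were higher in ISC (Dhx15, Ddx46 and Ddx42) and 0 lower, against 26.7% and 22.7% of all hosts.

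Dhx15 encodes the DEAH helicase that takes the spliceosome apart after splicing and also acts in ribosome assembly. It had 110 reads in ISC and 21 reads in non-ISC, which is 703 and 275 per 1000000, a ratio of 2.55 (1.59 to 4.29). Most of this came from 1 circle of exons 2 and 3. By the annotation it is 630 bases long and coding throughout, with a length that is a multiple of 3. That circle had 90 ISC reads and 17 non-ISC reads, a ratio of 2.58 (1.53 to 4.62), and it made up 81.8% of the host's reads in ISC (73.3 to 88.5) and 81.0% in non-ISC (58.1 to 94.6). Its share of the host's reads was thus nearly the same in both libraries, while the reads of the host differed. A further 12 circRNAs of Dhx15 with 1 to 6 reads each summed to 20 ISC reads and 4 non-ISC reads. The 13 circRNAs used 6 acceptors and 8 donors, and 4 of them began at exon 3 (position 52181175). The direction rests on the junction reads: in the deposited count column the circle of exons 2 and 3 had 90 in ISC and 128 in non-ISC, and the ratio of the host was 0.185.

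Ddx17 encodes a close relative of Ddx5, and both act in splicing, transcription and microRNA processing. It had 63 reads in ISC and 16 in non-ISC, a ratio of 1.92 (1.10 to 3.56), just short of the 2-fold needed for a call. With median-ratio size factors the ratio was 2.36 and called higher, and in the deposited count column it was 0.306 and called lower. The circle of exons 2 to 4 (385 bases) had 16 reads in each library, a ratio of 0.487 (0.228 to 1.041). The circle of exons 2 to 3 (251 bases) had 24 ISC reads and no entry in non-ISC. The smaller circle therefore led in ISC, with 38.1% of the host's reads (26.1 to 51.2), against 0 of 16 reads in non-ISC, which allows up to 20.6%. The larger circle made up 25.4% of the reads in ISC (15.3 to 37.9) and all 16 reads in non-ISC (79.4 to 100). A missing entry need not mean 0 reads, because the sources used here do not give the rule by which entries were kept. Further ISC circles came from exons 9 to 11 and from exons 9 to 12, the second with an alternative end of exon 12, with 8 reads each, and none had reads in non-ISC.

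Ddx46, whose yeast counterpart helps the U2 particle to bind the branch point, had 50 ISC reads and 12 non-ISC reads. The ratio was 2.03 (1.07 to 4.19), but 0.811 in the deposited count column. Its leading circle also differed between the libraries. In ISC it was exons 14 to 15 (328 bases) with 19 of 50 reads (38.0%, 24.7 to 52.8), which had no entry in non-ISC and so 0 of 12 reads there (up to 26.5%). In non-ISC it was exons 16 to 18, at chr13:55666187-55670353, with 5 of 12 reads (41.7%, 15.2 to 72.3), against 12 of 50 reads in ISC (24%, 13.1 to 38.2). The intervals of this second circle overlap. Exons 8 to 9 gave another 8 reads in ISC with no entry in non-ISC.

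Ddx42, a relative of Ddx46 that also contacts the U2 particle, had 36 reads in ISC and 8 in non-ISC, a ratio of 2.19 (1.003 to 5.46), but 0.737 in the deposited count column. Its circRNAs fanned out from exon 2: 5 of the 9 with reads began at that acceptor (position 106224081) and ended at exons 3, 4, 6, 9 or 10. The most abundant one, exons 10 to 13 at chr11:106236995-106240099, lay apart from these and had 11 ISC reads and 3 non-ISC reads, a ratio of 1.79 (0.472 to 9.98). The lower limit of the host's interval lies just above 1, and 6 of the ISC reads came from an entry with neither end on an exon end. With circles of whole exons alone Ddx42 was not called.

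The other splicing helicases with at least 10 reads were not called. Ddx23, whose yeast counterpart releases the U1 particle from the 5′ splice site, had 23 ISC reads and 12 non-ISC reads, a ratio of 0.934 (0.446 to 2.06). Its circle of exons 2 to 3 led in both, with 19 of 23 reads in ISC (82.6%) and 8 of 12 in non-ISC (66.7%). Ddx5 had 15 ISC reads and 7 non-ISC reads, with a ratio of 1.045 (0.401 to 3.03). Ddx39b, which loads export factors onto spliced mRNA, had 15 ISC reads and 5 non-ISC reads, with a ratio of 1.46 (0.505 to 5.14). Of its reads, 13 in ISC and 3 in non-ISC fell on a circle with 1 end away from any exon end. Dhx35, a component of the catalytic spliceosome, had 4 ISC reads and 6 non-ISC reads, and a ratio of 0.325 (0.0675 to 1.37). Dhx8, which releases the spliced mRNA, had 6 ISC reads and 1 non-ISC read, too few for a call.

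The ribosome biogenesis helicases differed among themselves. Of 16 genes with that role, 13 were hosts, and together they had 62 ISC reads and 45 non-ISC reads, a ratio of 0.672 (0.450 to 1.009). Without Ddx52 the ratio was 1.62 (0.946 to 2.92), so that 1 gene set the side of 1 on which the group fell. Of the 4 with at least 10 reads, Ddx55 and Ddx18 were higher in ISC, Ddx52 was lower, and Ddx50 was not called, against 26.7% higher and 22.7% lower of all hosts.

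Ddx52, whose yeast counterpart acts in the assembly of the small ribosomal subunit, had 2 reads in ISC and 27 in non-ISC, a ratio of 0.0361 (0.00416 to 0.144). It stood out as the largest difference among the helicase hosts with reads in both libraries and ran against the other 3 hosts of its role with at least 10 reads, each of which held a larger share of the junction reads in ISC than in non-ISC. All 27 non-ISC reads lay on the circle of exons 5 to 6 (256 bases), which had no entry in ISC, and both ISC reads lay on exons 11 to 12. The 2 libraries thus shared no circRNA of this host.

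Ddx55, which acts on the large subunit in yeast, had 24 ISC reads and 3 non-ISC reads, a ratio of 3.90 (1.18 to 20.2). In the deposited count column the ratio was 0.483 (0.309 to 0.764) and called lower. Most junction reads came from its single exon 13, a circle of 293 bases at chr5:124567835-124568127 with 19 ISC reads and 3 non-ISC reads, a ratio of 3.09 (0.909 to 16.3). Ddx18, a nucleolar helicase needed for both subunits in yeast, had 10 ISC reads and 0 non-ISC reads. This is at least 1.62-fold higher where the 0 is set to the limit of 3 reads, and the exact interval starts at 1.09, so its call, made with the 0 as it stands, does not fix a 2-fold difference. Those 10 reads were spread over 3 circRNAs with 4, 4 and 2 reads, and without the last, which has neither end on an exon end, Ddx18 was not called. Ddx50, a nucleolar relative of Ddx21, had 11 ISC reads and 4 non-ISC reads, with a ratio of 1.34 (0.397 to 5.77). The other 9 hosts of the group had at most 7 reads. Of these, Ddx31 had 1 ISC read and 5 non-ISC reads, and it was named here after its values were seen.

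The helicases of export, translation and decay had 56 ISC reads and 26 non-ISC reads over 9 hosts, a ratio of 1.050 (0.648 to 1.74). Neither of the 2 with at least 10 reads was called, against 49.4% of all hosts with as many reads. Ddx6, which represses translation and promotes decapping in P-bodies, had 32 ISC reads and 13 non-ISC reads, a ratio of 1.20 (0.613 to 2.49). Its circle of exons 5 to 6 (277 bases) led in both libraries, with 21 of 32 reads in ISC (65.6%, 46.8 to 81.4) and 7 of 13 in non-ISC (53.8%, 25.1 to 80.8). Dhx9, which unwinds double-stranded RNA, had 16 ISC reads and 9 non-ISC reads, a ratio of 0.867 (0.361 to 2.23). The translation helicase Ddx3x had 2 reads in each library. The paralogs Ddx19a and Ddx19b, which act in mRNA export at the nuclear pore, had 2 ISC reads and 1 non-ISC read and 1 ISC read and 0 non-ISC reads. Their coding sequences around the motif are identical. Those at the back-splice junctions, where the reads are counted, were not compared. Whether reads were split between the pair was not tested.

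The remaining roles were thinly covered. Ddx11, a DNA helicase of sister chromatid cohesion, had 2 reads in ISC and 8 in non-ISC, a ratio of 0.122 (0.0126 to 0.611), and as in Ddx52 no circRNA was read in both libraries. The mitochondrial RNA helicase Dhx30 had 8 ISC reads and 0 non-ISC reads, too few for a call. The antiviral genes Ddx58 (RIG-I) and Ddx60 summed to 5 ISC reads and 2 non-ISC reads, and the germ line gene Ddx43 had a single ISC read. Ddx20, Dhx32, Dhx40 and Dhx57 summed to 33 ISC reads and 7 non-ISC reads, a ratio of 2.30 (0.9997 to 6.16). None of the 4 was called, and 2 of them had at least 10 reads, where 49.4% of all hosts were called. Of these, Dhx57 had 12 ISC reads and 6 non-ISC reads and Dhx32 had 9 ISC reads and 1 non-ISC read. All 6 non-ISC reads of Dhx57 fell on exons 8 to 10, which had no entry in ISC, although 4 circRNAs of this gene began at the same acceptor (position 80267639).

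**Figure D3:**
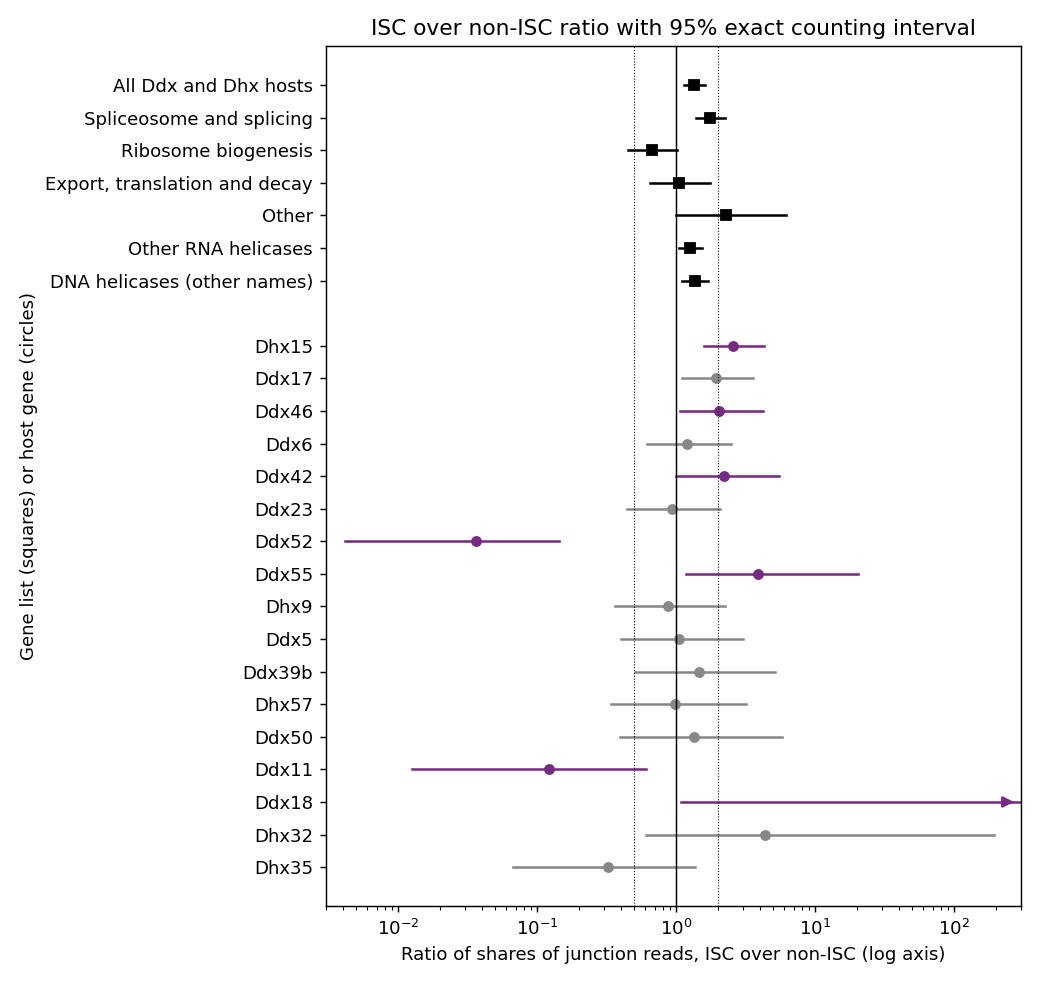
Ratio of shares of junction reads, ISC over non-ISC, on a log axis, for summed gene lists (squares) and for each helicase host with at least 10 reads (circles; purple where called, grey where not). Lines are exact 95% counting intervals, dotted lines mark a ratio of 2 either way, and the arrow for Ddx18 marks a host with 0 non-ISC reads: the splicing helicases lie to the right of 1 at 1.74, and Ddx52 lies farthest left at 0.0361.

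Helicases outside the family were summed in the same way. Of 23 gene symbols of RNA helicases with other names, among which Skiv2l2 and Mtrex name 1 gene, 18 were hosts. They had 386 ISC reads and 149 non-ISC reads, a ratio of 1.26 (1.043 to 1.54). None of the 7 with at least 10 reads was called, against 49.4% of all hosts with as many reads, and this difference was not tested. Of 25 DNA helicase genes, 22 were hosts, with 348 ISC reads and 125 non-ISC reads, a ratio of 1.36 (1.10 to 1.68). Among the 12 of these with at least 10 reads, 3 were higher in ISC (the replicative helicase genes Mcm4 and Mcm6, and Blm) and 2 were lower (Ercc6 and Helq), near the 26.7% and 22.7% of all hosts. The ratio of 1.34 for the DEAD and DEAH box hosts lies between these 2 values and inside both of their intervals.

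Single circRNAs overlapped little between the libraries, among the helicases as in the whole series. Of 131 helicase circRNAs with a junction read, 22 had reads in both libraries, 82 in ISC alone and 27 in non-ISC alone. The 22 were 21.2% of those read in ISC (13.8 to 30.3) and 44.9% of those read in non-ISC (30.7 to 59.8). Over the whole series, 4375 shared circRNAs were 23.7% and 35.9% of the ISC and non-ISC lists. Of the circRNAs read in either library, 16.8% of the helicase ones (10.8 to 24.3) and 16.7% of all were read in both. The overlap is therefore no result about the helicases. The shared helicase circRNAs carried 271 ISC reads (55.4%) and 92 non-ISC reads (51.7%). Most were rarely read: 62.5% of the helicase circRNAs in ISC and 63.3% of those in non-ISC had 1 or 2 reads, against 54.6% and 57.3% of all circRNAs. Of the 14 circRNAs with at least 10 reads, 3 were called higher in ISC (21.4%, against 32.4% of all 3659), which are the Dhx15 circle of exons 2 to 3, the Ddx17 circle of exons 2 to 3 and the Ddx46 circle of exons 14 to 15. The Ddx52 circle of exons 5 to 6 was called lower (7.14%, against 23.0% of all). For the Ddx17, Ddx46 and Ddx52 circles the call sets reads against a missing entry, counted as 0. In 5 hosts with at least 10 reads in each library the leading circle could be compared: it was the same in Dhx15, Ddx6 and Ddx23 and another one in Ddx17 and Ddx46.

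**Figure D4:**
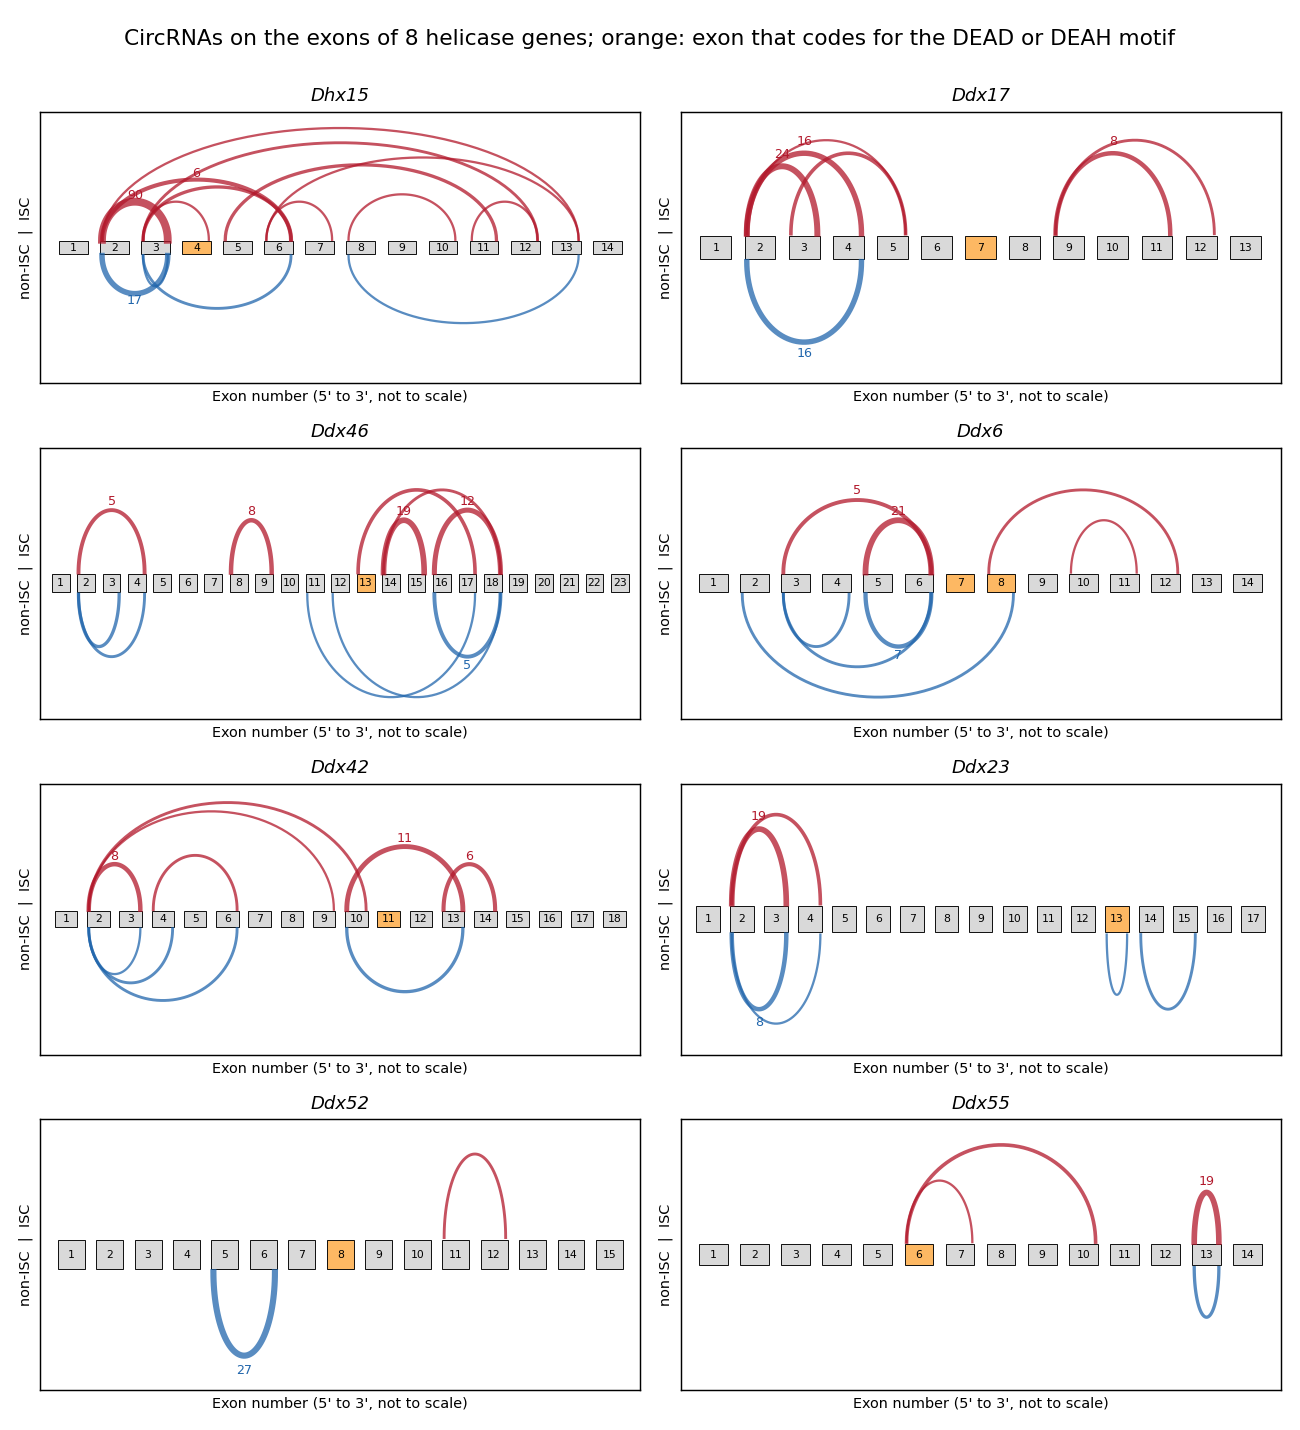
Back-splice circles drawn as arcs over the numbered exons of 8 helicase genes (x axis, 5′ to 3′, not to scale), ISC above the exons in red and non-ISC below in blue; a thicker arc has more reads, reads are printed for arcs of at least 5, and orange marks the exon or exons that code for the DEAD or DEAH motif. Circles with both ends on exon ends of the drawn transcript are shown (6 of 7 for Ddx17, 6 of 8 for Ddx6, 8 of 9 for Ddx42 and all for the others): the thick arcs of Dhx15, Ddx17, Ddx6, Ddx23 and Ddx52 end before the orange exon, and the 11-read arc of Ddx42 spans it.

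Most helicase circles ran from exon end to exon end, and these are called circles of whole exons here. Both ends lay on exon ends of 1 transcript for 83 of 104 circRNAs in ISC (79.8%, 70.8 to 87.0) and for 48 of 49 in non-ISC (98%, 89.1 to 99.9). Over all circRNAs of the libraries the shares were 71.1% and 73.8%. All circRNAs include those without a host gene, which the helicase set cannot hold, so the 2 sets are not alike. By reads the helicase circles of whole exons made up 90.4% in ISC and 98.3% in non-ISC. The 21 other ISC entries had 47 junction reads but 10054 in the deposited count column, with a median of 27.0 counts per junction read, against 3 for the circles of whole exons. The most extreme was a stretch of Ddx5 at chr11:106783120-106783436 that overlaps the annotated gene Gm25994, with 8403 counts on 2 junction reads. This entry was picked out after its values were seen.

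By the annotation, the exonic circles of the helicases held a median of 3 exons and 463.5 bases, close to the 475 bases of all exonic circles. Their median span on the genome was 3924 bases, against 6338 bases over all exonic circles. The flanking introns had medians of 2098 bases upstream and 1524 bases downstream, against 4796 and 3614 bases over all circles. All introns of these transcripts had a median of 1077 bases in the helicases and of 1622 bases for all exonic circles. In both sets the median intron beside a circle was thus longer than the median intron of the same transcripts. Exon 2 was the acceptor of 28 of 110 exonic circles (25.5%, 17.6 to 34.6), against 26.2% of all. These carried 42.1% of the reads of exonic helicase circles, against 45.2% over all exonic circles. None of the helicase circles began at exon 1.

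The motif that names the family marks a fixed point in each gene, and its exon could be looked up for 41 of the 42 hosts, all but Dhx32. The letters were DEAD in a Ddx gene or DEAH in a Dhx gene for 27 hosts, and others, called a variant, for 14. Ddx11 is among the 14 only by its name, since its site codes for DEAH. It lay at a median of 44.3% of the coding sequence, with a range of 22.2% to 66.9%. The following windows show the 12 bases that code for the motif in CAPITALS with 24 coding bases on each side, 5′ to 3′, from GENCODE M21 transcripts on GRCm38. They are the site in the host with the most reads and the sites inside the 2 motif-bearing circles of whole exons with at least 10 reads.
Dhx15, chr5:52171496-52171507, minus strand, exon 4: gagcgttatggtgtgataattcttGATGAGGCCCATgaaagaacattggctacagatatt
Ddx42, chr11:106238574-106238585, plus strand, exon 11: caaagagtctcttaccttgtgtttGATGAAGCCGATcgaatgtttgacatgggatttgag
Ddx50, chr10:62640511-62640522, minus strand, exon 6: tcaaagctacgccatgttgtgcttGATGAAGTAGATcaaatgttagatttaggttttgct
The Dhx15 site codes for the DEAH form and the Ddx42 site for the DEAD form, while Ddx50 has a variant.

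A circle is said to hold the motif where its 2 ends enclose the motif on the genome. Of 107 exonic circles in hosts with a located motif, 31 held it (29.0%, 20.6 to 38.5), and they carried 95 of 609 reads (15.6%, 12.8 to 18.7). In ISC it was 21 of 80 circles (26.2%, 17 to 37.3) with 63 of 435 reads, and in non-ISC 14 of 47 circles (29.8%, 17.3 to 44.9) with 32 of 174 reads. The shares of circles overlapped between the libraries, as did the shares of reads, 14.5% in ISC (11.3 to 18.1) and 18.4% in non-ISC (12.9 to 25). Of the 13 exonic circles with at least 10 reads, 2 held the motif. These were the Ddx42 circle of exons 10 to 13 and the Ddx50 circle of exons 3 to 8. The Ddx50 circle had 7 ISC reads and 4 non-ISC reads. No interval was computed for 2 of 13, so it does not show a smaller share than the 29.0% of all exonic circles. A Ddx39b entry with 13 ISC reads and 3 non-ISC reads also encloses the motif. It is not among the 13, since 1 of its ends lies off an exon end. The leading circle of Dhx15 stopped at exon 3, next to the motif in exon 4. That of Ddx6 stopped at exon 6, before a motif split over exons 7 and 8. In Ddx46 the circle of exons 14 to 15 lay just after the motif in exon 13.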

How the data were processed

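Per the file headers, the 2 deposited circRNA lists give a position, a host gene, a count, its RPM (reads per 1000000) and a junction count. The deposited junction count, whole reads across the back-splice junction, was the measure. The authors' RPM is the count per 1000000 reads of totals of 52636694 (ISC) and 72271995 (non-ISC) reads. Trimmomatic 0.36, FastQC and mm9 are named per the submitters' processing notes; aligner and circRNA caller: not given in the sources used here. Starts fell on exon starts of GENCODE M21 for 77.9% of ISC and 75.3% of non-ISC circRNAs, so coordinates are given as GRCm38, counted from 1. Fragments read from both ends may cross a junction with both mates, and intervals may then be too narrow.

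Entries were joined by position and host, and a missing entry counted as 0. Shares have exact (Clopper-Pearson) and ratios exact conditional 95% intervals (SciPy 1.17.1, Python 3.11.15, pandas 2.3.3, Biopython 1.88); the scripts were tested on simulated data. Hosts with at least 50 reads are described in full and other called hosts named with their reads; circRNAs are named with at least 20 reads in a library or as leading circle of a fully described host. Other members and circles are named to complete the role groups, after their values were seen. The members and lists were chosen with earlier results of these data known. The motif was found by translating the annotated coding sequence. Alternatives changed the scaling, the read column, the read minimum and the circRNAs used.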

Additional observations from a re-analysis of the deposited data

Results flagged for a closer look

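In the non-ISC library 41 of the 90 helicase entries had 0 junction reads (45.6%, against 33.4% of all its entries), yet they hold 1409 in the deposited count column, above the limit of 3 that a count of 0 allows. In the ISC library no entry was without a junction read. The sources used here do not say what the count column adds to the junction reads, and its part in these values was not tested.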

How the results depend on the processing

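Scaling by the library totals behind the RPM values multiplied every ratio by 2.82 (1.49 on the log2 scale) and median-ratio size factors by 1.23 (0.30), which sets where a ratio of 1 lies. With library totals the summed helicase ratio was 3.77, with 13 hosts and 10 circRNAs higher and 1 host lower; the ratios were 4.91 for splicing, 1.89 for ribosome biogenesis, 2.96 for export, translation and decay, 6.47 for the 4 genes of other roles, 3.56 for other RNA helicases and 3.82 for DNA helicases. With size factors the summed ratio was 1.65 and that of other RNA helicases 1.55; 6 hosts were then higher, with Ddx17 added at 2.36 (32.3% of all hosts higher), and the sums of splicing (2.15) and of other roles (2.83) passed the 2-fold rule. In the deposited count column 42 circRNAs were higher, 45 circRNAs and 19 hosts lower (53.8% of all hosts lower), and the ratios were 2.34 for splicing (0.469 without the Ddx5 entry of 8403 counts, without which the summed ratio was 0.605, chosen after seeing the data), 0.445 for ribosome biogenesis, 0.9768 for other roles, 0.185 for other RNA helicases and 0.701 for DNA helicases; 4 called hosts turned round, Dhx15 at 0.185, Ddx46 at 0.811, Ddx42 at 0.737 and Ddx55 at 0.483, and Ddx17 was called lower at 0.306. The cause was not tested. With reads halved, as where both mates were counted, 1 host was higher (Dhx15) and 1 lower (Ddx52). With circRNAs read in both libraries, 1 host and 1 circRNA (both Dhx15) were higher and 0 hosts and 0 circRNAs lower, with 1.46 for ribosome biogenesis and 1.010 for DNA helicases. With circles of whole exons, 3 hosts were higher (Dhx15, Ddx46 and Ddx55). A minimum of 20 reads left 1 host lower (Ddx52), and no minimum gave 6 circRNAs lower. Under the alternatives the share of all circRNAs called was not computed. The share of all hosts called was not computed for circRNAs read in both libraries, circles of whole exons or another read minimum. Counts without such a share are no result about the helicases. With at least 10 reads the whole-exon share was 90.9% of 11 circRNAs in ISC and 100% of 3 in non-ISC. By reads the motif share was 14.5% in ISC. With 20 reads in each library 1 host was left to compare, with the same leading circle. The other 55 summary values stayed within their counting interval or within 1.5 times their count. Dhx15 was higher, and Ddx52 lower, under each alternative that gave them a value, except the count column for Dhx15. No paired analysis was possible because each group had 1 library and no test was made.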
